A study of Homo sapiens with 6 samples.

Results

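Polycomb repressive complex 2 (PRC2) was followed here through the RNA of 10 genes, chosen by symbol from the 35793 genes of the deposited table: EZH2 and EZH1, EED, SUZ12, RBBP4 and RBBP7, JARID2, AEBP2, PHF19 and MTF2. All 10 were found and all 10 averaged 10 or more normalized counts over the libraries, the level needed to be tested, which 15536 genes reached. The set was put together with earlier results of these data in view, because EZH2 lies in a stretch of distal chromosome 7q whose genes were lower in the knockout. The differences between genotypes that are given for the 10 genes are therefore a description, without p-values. Calls of these genes in the fit over all genes are counted below, and nothing is read from them.

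The libraries came from cardiomyocytes on day 15 of differentiation of WTC11, an established human induced pluripotent stem cell line. The 3 wild-type libraries came from unedited WTC11 cells. The 3 knockout libraries came from a WTC11 derivative with a homozygous CRISPR/Cas9 knockout of STK25, which encodes a serine/threonine kinase. The knockout was 1 edited line, so the edit and any other difference between the lines cannot be told apart.

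PRC2 places methyl groups on lysine 27 of histone H3, a mark of silenced genes. EZH2 or its paralog EZH1 supplies the methyltransferase, which works only in a core with EED and SUZ12 and with the histone-binding proteins RBBP4 or RBBP7. Accessory proteins join this core in alternative forms: PHF19, MTF2 and PHF1 in one, JARID2 and AEBP2 in the other. EZH2 is the form typical of dividing cells, EZH1 is kept in cells that have left the cycle, and in the developing heart PRC2 is known for silencing regulators of other lineages.

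Library depth ran from 22443904 to 53224112 recovered reads, and each of the 10 genes had at least 142 reads in every library. STK25 itself was checked first: its normalized counts were 8874, 6774 and 8710 in the wild type and 3906, 3434 and 3820 in the knockout, which left 45.8% of the wild-type mean (limma log2 fold change -1.12, SE 0.19, adjusted p = 0.00903, and 0.0684 at most over the alternatives). Of all genes tested 1982 (12.8%) had an adjusted p under 0.05 with limma, 5.97% higher and 6.79% lower in the knockout. Values of the genotypes did not overlap in 33.4% of the tested genes, with 16.2% higher and 17.2% lower. The first principal component (55.6% of the variance) separated the genotypes, and on the second (24.1%) knockout replicate 1 and wild-type replicate 2 stood apart. With libraries scaled to equal totals, the median of all log2 fold changes went from 0.0052 to -0.27, and the calls were 549 higher and 1456 lower in place of 927 and 1055. Cardiomyocyte markers summed to 827396 to 889583 normalized counts in the wild type and 1020050.0 to 1050380.0 in the knockout. Of 8 markers, 0 passed the limma threshold, 1 passed with edgeR, 4 with DESeq2 and 4 had an unadjusted limma p under 0.05. They did not move together: 5 had log2 fold changes above 0 and 3 under 0. MYH6 was at 43.6% of its wild-type mean and MYH7 at 251%. In bulk RNA, fewer cells of a type and less RNA per cell cannot be told apart.

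EZH2, the catalytic subunit of the proliferating state, had the largest log2 difference of the 10 genes with all libraries, although AEBP2 exceeded it without knockout replicate 1 (-1.19 against -1.02). It had 1361, 874 and 1281 normalized counts in wild-type replicates 1, 2 and 3 and 281, 471 and 685 in knockout replicates 1, 2 and 3. All 3 knockout libraries lay under all 3 wild-type libraries, and the lowest value of each genotype came from a library that stood apart on the second component. The means were 1172 ± 261 and 479 ± 202 (SD, n = 3 each), so the knockout held 40.9% of the wild-type level (log2 difference -1.35, SE 0.36). For EZH2, leaving out knockout replicate 1 gave -1.02, leaving out wild-type replicate 2 gave -1.55, and leaving out both gave -1.21.

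EZH1, the paralog that can take the place of EZH2 in the core, did not show that drop. Its normalized counts were 1051, 708 and 879.7 in the wild type and 1109.7, 809 and 903 in the knockout, and the genotypes overlapped. The means were 879.8 ± 171 and 941 ± 154 (SD, n = 3 each), and the log2 difference of 0.10 (SE 0.24) was smaller than its error and was -0.18 with equal totals. In both genotypes replicate 1 held the most EZH1 and replicate 2 the least. EZH1 and EZH2 together came to 2052 ± 426 normalized counts in the wild type and 1419.8 ± 156 in the knockout (SD, n = 3 each), or 69.2% of the wild-type sum.

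**Figure D1:**
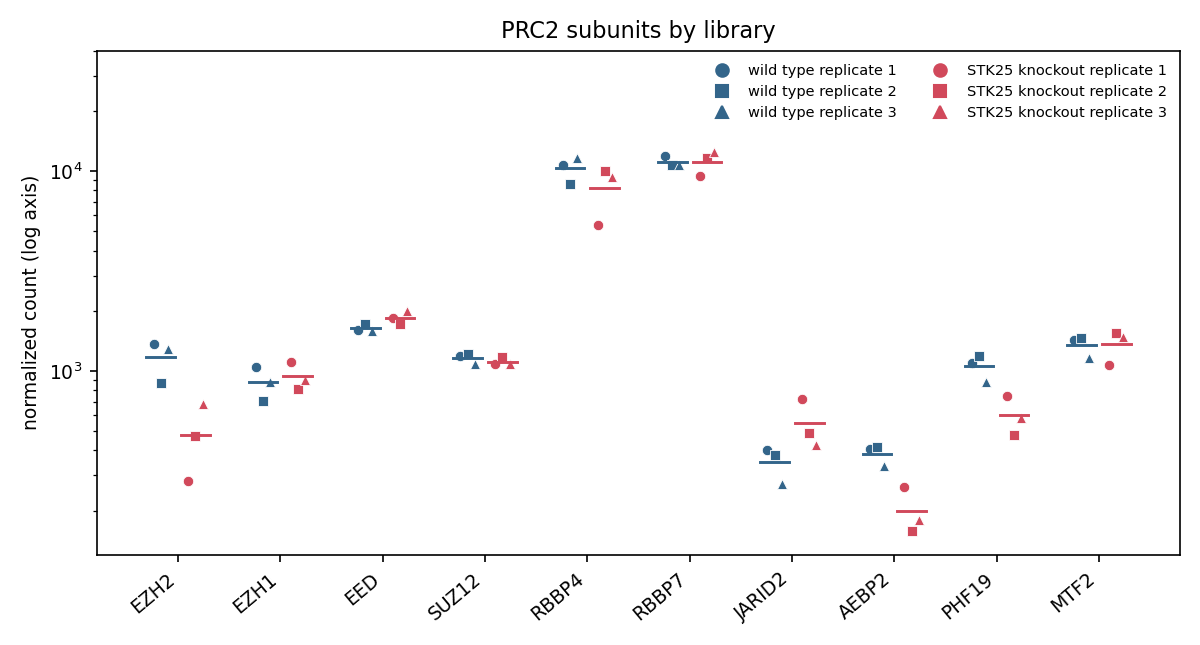
Normalized counts (log axis) of the 10 PRC2 genes in each library, with blue for wild type, red for STK25 knockout, 1 symbol per replicate number and a line at the mean of 3 libraries. The red points lie under all blue points for EZH2, AEBP2 and PHF19 and above them for JARID2, and the colours overlap for the other 6 genes.

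The balance between the catalytic paralogs was also read within each library, where the scaling between libraries cancels. The ratio of EZH1 to EZH2 normalized counts was 0.772, 0.811 and 0.687 in the wild type and 3.95, 1.72 and 1.32 in the knockout. EZH2 was the larger count in every wild-type library and EZH1 in every knockout library. Divided by median transcript length, which allows the levels of different genes to be compared, the ratio was 0.771 ± 0.065 in the wild type and 2.37 ± 1.44 in the knockout (SD, n = 3 each). The wide knockout spread came from replicate 1, where the ratio per length was 4.02 against 1.75 and 1.34 in replicates 2 and 3. By the length of all merged exons, mean EZH1 and EZH2 levels were 190 and 383 normalized counts per kilobase in the wild type. In the knockout they were 203 ± 33.1 and 156 ± 66.1 (SD, n = 3 each). Which paralog is the larger in a knockout library can therefore depend on the length used.

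The promoters of both paralogs are shown because EZH2 is a classic target of E2F transcription factors, which drive genes of the dividing cell, and because some genes of replication and mitosis also fell in the knockout. SUZ12, a core member that did not share the difference, is shown beside them. Each window runs from 250 bases before to 50 bases after a start of the RefSeq annotation of GRCh38.p14 and reads 5′ to 3′ along the gene, with capitals on any match to the E2F-type words TTTGGCGC, TTTCGCGC or TTTCCCGC on either strand. The windows are chr7:148884242-148884541 (minus strand) for EZH2, chr17:42744991-42745290 (minus strand) for EZH1 and chr17:31936757-31937056 (plus strand) for SUZ12.
EZH2: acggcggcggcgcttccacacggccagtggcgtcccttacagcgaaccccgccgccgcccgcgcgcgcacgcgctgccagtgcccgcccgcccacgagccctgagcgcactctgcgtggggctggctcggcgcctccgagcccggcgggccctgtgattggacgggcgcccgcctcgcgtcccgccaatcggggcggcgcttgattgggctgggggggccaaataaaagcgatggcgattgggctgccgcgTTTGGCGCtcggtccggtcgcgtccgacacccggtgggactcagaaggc
EZH1: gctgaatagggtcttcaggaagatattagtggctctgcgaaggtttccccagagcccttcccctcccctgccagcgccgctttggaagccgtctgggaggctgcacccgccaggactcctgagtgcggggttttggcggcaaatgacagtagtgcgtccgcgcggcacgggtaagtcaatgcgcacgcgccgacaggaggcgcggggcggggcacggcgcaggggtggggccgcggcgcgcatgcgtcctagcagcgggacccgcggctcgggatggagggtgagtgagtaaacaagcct
SUZ12: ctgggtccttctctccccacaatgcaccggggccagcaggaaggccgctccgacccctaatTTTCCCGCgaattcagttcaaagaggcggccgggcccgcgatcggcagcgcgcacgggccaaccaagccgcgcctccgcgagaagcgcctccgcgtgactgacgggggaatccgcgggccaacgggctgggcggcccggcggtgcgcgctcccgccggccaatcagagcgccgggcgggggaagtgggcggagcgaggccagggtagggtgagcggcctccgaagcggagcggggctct

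The EZH2 window held 1 match, TTTGGCGC, which begins 1 base after the start base, and a second EZH2 start in the same annotation had none. The EZH1 window held none. SUZ12 held TTTCCCGC, which begins 189 bases before its start, although its RNA overlapped between genotypes. All 10 genes had a window, 15 in all, of which 4 (26.7%) held a match, the others belonging to MTF2 and PHF19. Among all 35116 windows 2.74% held a match, and among the 39 windows of the replication and mitosis list 46.2%. The 3 words differ from each other, so 1 position cannot match more than 1 of them on the same strand. A match is a description of letters and was not tested as a binding site.

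EED, which binds the methylated histone tail and stimulates the enzyme, had 1609, 1725 and 1591 normalized counts in the wild type and 1830.4, 1719.8 and 1997 in the knockout. The ranges touched, since knockout replicate 2 lay under wild-type replicate 2. The log2 difference was 0.17 (SE 0.18), and -0.11 with equal totals. SUZ12, the scaffold of the core, was at 1193, 1212 and 1078 in the wild type and 1082, 1171 and 1086 in the knockout, with a log2 difference of -0.06 (SE 0.18). Its SD was 6.24% of the mean in the wild type and 4.54% in the knockout. A pseudogene copy, SUZ12P1, was listed at 28.5% of the SUZ12 level in the wild type and 26.0% in the knockout, so reads shared between these copies make the SUZ12 level uncertain.

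Against these steadier partners the lower level of EZH2 appeared as a change of proportion among the RNAs of core genes. The ratio of EZH2 to EED normalized counts was 0.846, 0.506 and 0.805 in the wild type and 0.153, 0.274 and 0.343 in the knockout. The ratio of EZH2 to SUZ12 was 1.14, 0.721 and 1.19 in the wild type and 0.260, 0.402 and 0.631 in the knockout. Neither ratio overlapped between the genotypes, whereas the ratio of EED to SUZ12 did, at 1.35 to 1.48 in the wild type and 1.47 to 1.84 in the knockout. The RNA of EZH1, EZH2, EED and SUZ12 summed to 4854 ± 348 normalized counts in the wild type and 4382 ± 259 in the knockout (SD, n = 3 each), or 90.3%. The amount and make-up of the protein complex were not measured.

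RBBP4 and RBBP7 are closely related histone chaperones that PRC2 shares with deacetylase and chromatin assembly complexes. RBBP4 had 10742, 8659 and 11578 normalized counts in the wild type and 5349, 10051 and 9346 in the knockout, which overlapped (log2 difference -0.37, SE 0.28). Without knockout replicate 1 it was -0.081. RBBP7 had 11949, 10667 and 10720.4 in the wild type and 9455, 11557 and 12459 in the knockout, with a log2 difference of -0.0018 (SE 0.19). Reads of these paralogs may have been split between them. The RBBP4 pseudogenes listed each held under 0.1% of the RBBP4 level.

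The JARID2 and AEBP2 arm moved apart. JARID2, which helps bring PRC2 to its target genes, had 402, 378 and 272 normalized counts in the wild type and 726, 487 and 424 in the knockout. Every knockout value was above every wild-type value, with means of 351 ± 68.8 and 546 ± 159 (SD, n = 3 each) and a log2 difference of 0.62 (SE 0.29), or 0.39 without knockout replicate 1. AEBP2, a zinc finger cofactor of the same form, went the other way, from 408, 416 and 334 to 263, 158 and 179. Its means were 386 ± 45.3 and 200.01 ± 55.6 (SD, n = 3 each), 51.8% of the wild type, with a log2 difference of -0.97 (SE 0.29).

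The ratio of the pair was read within each library. JARID2 to AEBP2 stood at 0.985, 0.908 and 0.816 in the wild type and 2.76, 3.08 and 2.37 in the knockout, a 3.02-fold difference of the geometric means. Divided by median transcript length the ratio was 0.490 ± 0.046 in the wild type and 1.48 ± 0.19 in the knockout (SD, n = 3 each). The sum of both genes was nearly level, at 736 ± 113 and 746 ± 212 normalized counts (SD, n = 3 each).

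**Figure D2:**
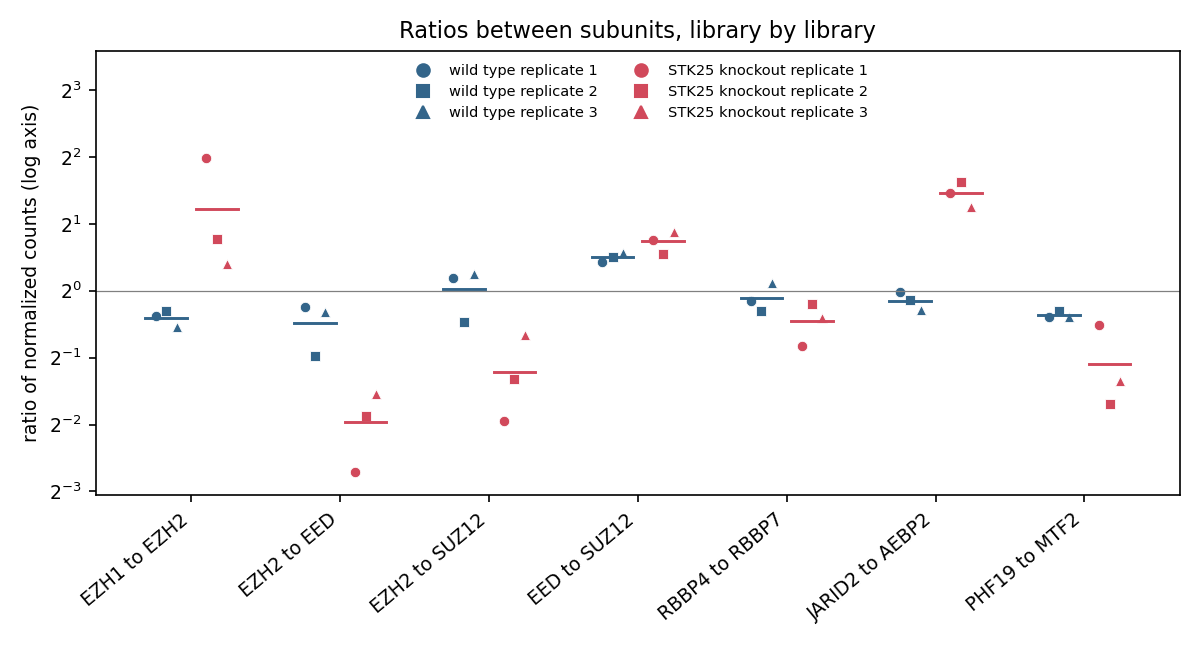
Ratios of normalized counts between PRC2 subunits within each library (log axis, grey line at 1), with blue for wild type, red for STK25 knockout and a line at the mean of 3 libraries. EZH1 to EZH2 lies under 1 in all 3 wild-type libraries and above 1 in all 3 knockout libraries, JARID2 to AEBP2 is under 1 in the wild type and 2.37 to 3.08 in the knockout, and EED to SUZ12 overlaps.

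PHF19 and MTF2 are Polycomb-like proteins that tether the core to chromatin in the alternative form. PHF19 had 1091, 1186 and 882 normalized counts in the wild type and 751, 476 and 582 in the knockout. The genotypes did not overlap, and the means of 1053 ± 156 and 603 ± 139 (SD, n = 3 each) put the knockout at 57.3% of the wild type (log2 difference -0.82, SE 0.25). MTF2 had 1426, 1460.1 and 1164 in the wild type and 1074, 1544 and 1481 in the knockout, which overlapped (log2 difference 0.0064, SE 0.22, and -0.28 with equal totals). The ratio of PHF19 to MTF2 was 0.765, 0.812 and 0.758 in the wild type and 0.699, 0.308 and 0.393 in the knockout.

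Counted over all 10 genes, 1 (EZH2) had an adjusted p under 0.05 with limma, beside 12.8% of all genes tested, and 4 had genotypes that did not overlap, 1 higher and 3 lower, beside 33.4%. This contrast helped to choose the set, so nothing is read from these counts. The EZH2 call, from which nothing is read for the same reason, was close to the threshold and was lost in 11 of the 19 alternative settings tried. Leaving out knockout replicate 1 gave 2 calls, AEBP2 and PHF19 in place of EZH2, and leaving out both libraries that stood apart gave 3, these genes together with EZH2. The median log2 fold change of the 10 was -0.03, and that of all genes tested was 0.0052.

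Per kilobase of median transcript length, the wild-type order of levels began with RBBP4 at 5966 and RBBP7 at 5458 normalized counts per kilobase, followed by EED at 941 and EZH2 at 460.1. EZH1 at 352 ± 68.6 and MTF2 at 342 ± 41.1 (SD, n = 3 each) did not differ beyond their spread, nor did PHF19 at 276 and SUZ12 at 274. AEBP2 at 125 and JARID2 at 61.8 were lowest. In the knockout EZH2 stood 7 of 10 in place of 4, and JARID2 and AEBP2 exchanged the last places. These shifts were the same when levels were divided by the length of all merged exons, although EZH1, MTF2, SUZ12, RBBP4 and RBBP7 took other places under that length.

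In GENCODE 29 on GRCh38, EZH2 spans chr7:148807383-148884321, minus strand. The 20 tested protein-coding genes nearest to it, 10 on each side, spread over 6.09 Mb, and 18 of them had log2 fold changes under 0, with a median of -1.11. They ran from -2.18 to 1.53, and EZH2 at -1.35 lay inside that range. CUL1, the nearest tested gene on the lower-coordinate side and a ubiquitin ligase scaffold, had 6693, 3225 and 6593 normalized counts in the wild type and 1265, 2645 and 2775 in the knockout (log2 difference -1.31, SE 0.40). PDIA4, an endoplasmic reticulum folding enzyme on the other side, had 6729, 4716 and 7017 against 1908, 3777 and 3280.3 (log2 difference -1.08, SE 0.30). In both genes, as in EZH2, the lowest library of each genotype was wild-type replicate 2 or knockout replicate 1.

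Other near neighbours were ARHGEF35, ARHGEF5 and CNTNAP2 on the lower-coordinate side and ZNF786, ZNF425, ZNF398 and ZNF282 on the other. Their log2 differences ran from -0.54 for ARHGEF35 to -2.18 for ZNF786, and the genotypes did not overlap except in ARHGEF35 and ZNF282. Along the chromosome, genes within 8 Mb below EZH2 or anywhere above it had a median of -1.05 (71 of 79 under 0). Genes 8 to 20 Mb below it had a median of -0.68 (44 of 66 under 0). That group was mixed: most of its genes at -15.6 Mb or farther from EZH2 were above 0. Most of its genes at -14.5 Mb or nearer were under 0. Genes 20 to 50 Mb below EZH2 had a median of 0.05 (81 of 169 under 0). Farther away the median was 0.06 at 50 to 100 Mb (70 of 149 under 0) and 0.46 beyond 100 Mb (62 of 207 under 0). The bounds were chosen after the profile was seen, and the stretch took part in choosing the set, so these are descriptions.

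**Figure D3:**
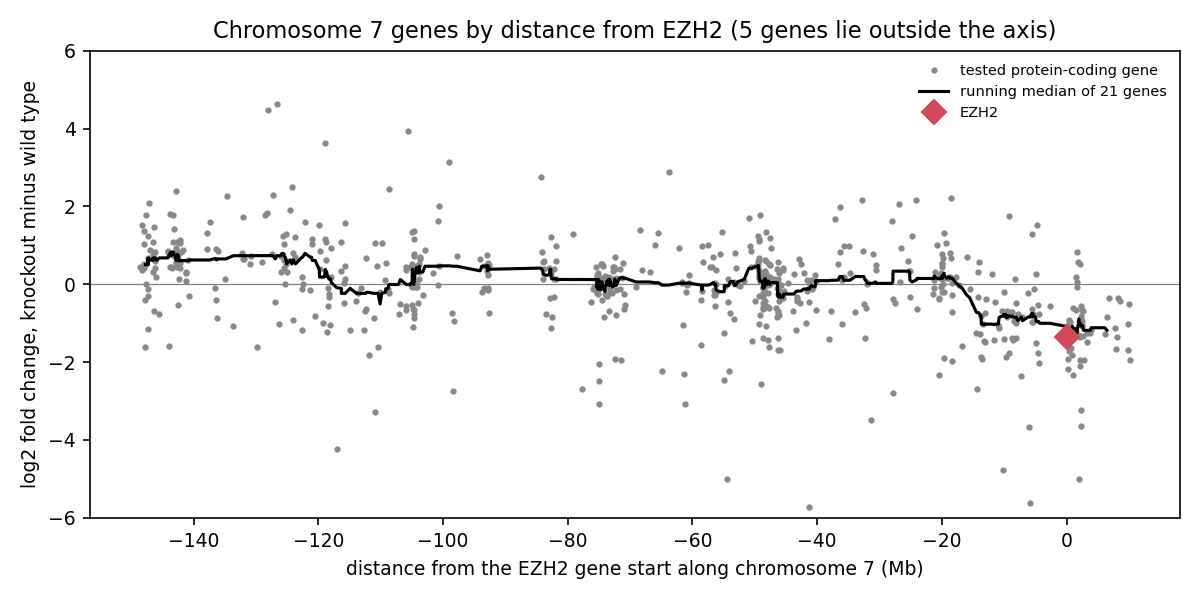
Log2 fold change (knockout minus wild type) of 671 tested protein-coding genes of chromosome 7 against the distance of their lower coordinate from that of EZH2 in Mb, with a running median of 21 genes (black) and EZH2 as a red diamond. The axis stops at 6 in both directions, which leaves out 5 genes. The running median lies mostly above 0 more than 100 Mb below EZH2, near 0 from there to about 20 Mb below it, and goes down to about -1 around EZH2.

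The neighbours of the other 3 subunits without overlap had medians on the other side of 0. AEBP2 on chromosome 12 had a log2 difference of -0.97 among 20 neighbours with a median of 0.34, of which 15 were above 0. PHF19 on chromosome 9 had -0.82 among neighbours with a median of 0.10, and JARID2 on chromosome 6 had 0.62 among neighbours with a median of -0.25. For EZH1, EED, SUZ12, RBBP4, RBBP7 and MTF2 the neighbour medians ran from -0.09 to 0.61, and that of 0.61 belonged to RBBP7 on chromosome X.

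Over the 6 libraries, RASSF4 and HAUS5 were among the tested genes whose log2 values followed EZH2 most closely, each with a Pearson's r of 0.996. This likeness is shared by many genes: 295 had an r above 0.95, and the points share their genotype groups and libraries. AEBP2 and PHF19 had an r of 0.991 with each other over the same libraries, whereas EZH2 and JARID2 had -0.895.

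The other PRC2 accessory genes were read next, since they were not among the 10. Of 5 listed, EZHIP, a natural inhibitor of the enzyme, had no read in any library. The other 4 were tested, with 0 past the limma threshold, 0 with edgeR, 2 with DESeq2 and 3 at an unadjusted limma p under 0.05. Over all 15536 genes tested, calls numbered 1982 with limma, 1864 with edgeR and 3210 with DESeq2. An unadjusted limma p under 0.05 was found for 4275 of them. PHF1, the Polycomb-like relative of PHF19 and MTF2, had 1251, 1284 and 1258 normalized counts in the wild type and 2415, 1927 and 1781 in the knockout. The groups did not overlap (log2 fold change 0.68, SE 0.19, limma adjusted p = 0.0590). EPOP, another partner of the Polycomb-like form, had 22.7, 38.1 and 32.5 against 334, 53.5 and 86.2, and its log2 fold change of 1.89 (SE 0.68, limma adjusted p = 0.116) was 1.13 without knockout replicate 1. LCOR had a log2 fold change of 0.56 (SE 0.21, limma adjusted p = 0.132) and LCORL one of -0.037 (SE 0.20, limma adjusted p = 0.934), which turned to 0.032 with quantile normalization.

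PRC1 is the companion complex that reads or acts beside the PRC2 mark and ubiquitylates histone H2A. Of 25 PRC1 genes, all tested, 2 rose and 1 fell with limma (3 of 25, beside 12.8% of all genes tested), and the median log2 fold change was -0.19. PCGF5, a RING-finger partner of the variant complexes, rose from 2269, 2564 and 2319 normalized counts to 7704, 6064 and 6285 (log2 fold change 1.48, SE 0.18, limma adjusted p = 0.00243). It passed in all 19 alternatives. AUTS2, which joins PCGF5 in a PRC1 form tied to gene activation, rose from 359, 490.5 and 414 to 1403, 951 and 794 (1.284, SE 0.28, limma adjusted p = 0.0218). CBX8, a reader of methylated lysine 27, fell from 329, 329 and 299 to 100.4, 126 and 148 (-1.36, SE 0.28, limma adjusted p = 0.0186). AUTS2 lost its call without wild-type replicates 1 or 3 or knockout replicate 2, and CBX8 without any 1 wild-type library or knockout replicate 2, with limma adjusted p-values up to 0.101 and 0.0926 over all alternatives. Leaving out wild-type replicate 1 or 3 left 1 call and leaving out knockout replicate 2 left 2, whereas 9 were made when both libraries that stood apart were dropped.

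Enzymes that oppose Polycomb silencing showed little. Of 15 listed, 1 fell and 0 rose with limma (6.67%, beside 12.8%), with a median of 0.11. The lower gene was KMT2C, an H3 lysine 4 methyltransferase, with 444.1, 352 and 305 normalized counts in the wild type and 196, 176 and 103 in the knockout (-1.24, SE 0.33, limma adjusted p = 0.0495). KMT2C starts at 152134922 on chromosome 7, within the same lowered stretch as EZH2, and its call was lost in 13 of 19 alternatives. The lysine 27 demethylases did not pass. KDM6A had 4078, 938 and 4877 normalized counts in the wild type and 1473, 6340 and 4660 in the knockout (log2 fold change 0.41, SE 0.73, limma adjusted p = 0.778). Its low values were in both libraries that stood apart. KDM6B had 302, 495 and 257 against 947, 289 and 176 (0.11, SE 0.60, limma adjusted p = 0.934). The direction of both depended on single libraries: KDM6A became -0.34 when wild-type replicate 2 was left out and -0.018 when knockout replicate 2 was. KDM6B became -0.0876 when wild-type replicate 3 was left out, -0.58 when knockout replicate 1 was, and -0.17 with equal totals.

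RBBP4 and RBBP7 also serve the NuRD and SIN3 deacetylase complexes and the chromatin assembly factor CAF-1. None of the 17 partner genes tested passed with limma, beside 12.8% of all genes tested, and the median was -0.03. An unadjusted limma p under 0.05 was found for 1 of the 17, beside 4275 of all 15536 genes tested. The count was also 0 with edgeR and DESeq2, and 3 when both libraries that stood apart were left out. The lowest was CHAF1B, a CAF-1 subunit, at -0.76 (SE 0.36, limma adjusted p = 0.219).

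**Figure D4:**
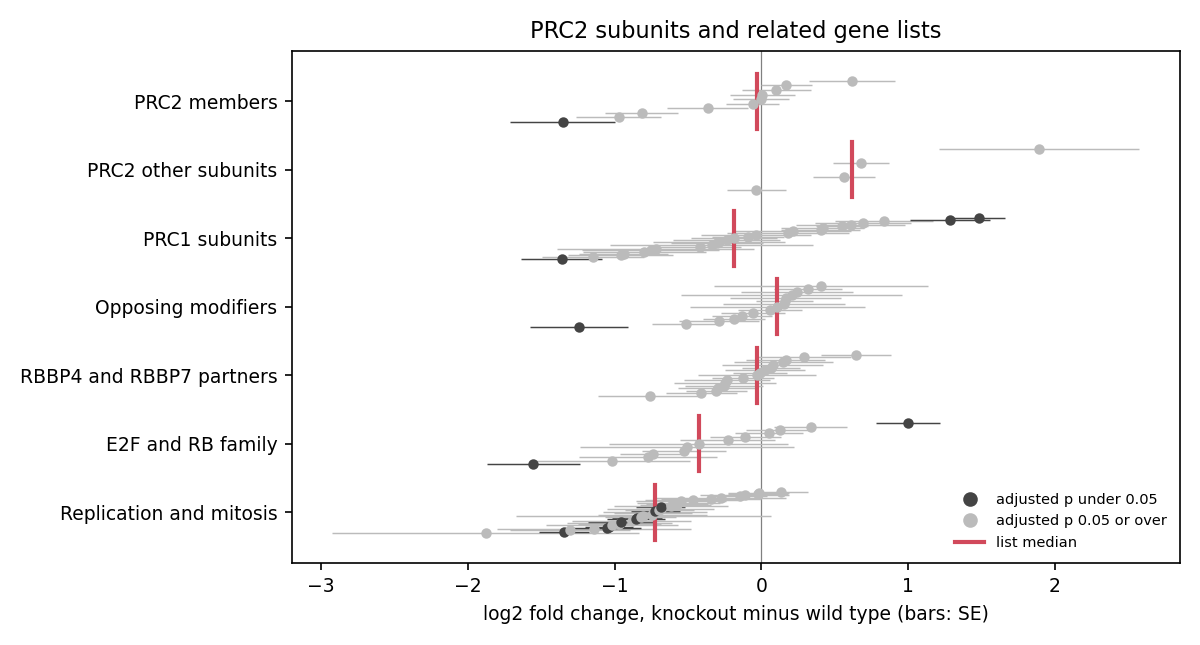
Log2 fold changes (knockout minus wild type) with SE for the 10 PRC2 genes and 6 related lists, dark where the limma adjusted p was under 0.05, with the list median as a red line. The PRC2 median lies at -0.03 and EZH2 is its lowest point, PRC1 has 2 dark points above 0 and 1 below, and replication and mitosis genes lie almost wholly below 0.

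Genes of DNA replication and mitosis, the state in which EZH2 is most used, were read next. Of 35 tested, 8 fell and 0 rose with limma (22.9%, beside 12.8% of all genes and 6.79% lower), 34 had log2 fold changes under 0 and the median was -0.73. TYMS, which makes thymidylate, fell from 9992, 11148 and 9138 normalized counts to 3746, 4084 and 4049 (-1.35, SE 0.17, limma adjusted p = 0.00290). MKI67, the Ki-67 proliferation antigen, fell from 2838, 1954 and 1752 to 1119, 1019 and 949 (-1.06, SE 0.23, limma adjusted p = 0.0243), and CCNB2, a mitotic cyclin, from 5019, 4918 and 4559.7 to 2287, 2436 and 2334 (-1.04, SE 0.17, limma adjusted p = 0.00690). GINS2, PCNA, BIRC5, CDK1 and CCNB1 also fell, with values of -0.96, -0.85, -0.85, -0.72 and -0.69 on the log2 scale. Their limma adjusted p-values were 0.0331, 0.0284, 0.0170, 0.0284 and 0.0362 in turn. Leaving out 1 library lowered the calls to 1 for replicate 1 of the wild type, 3 for its replicate 3, and 2 for replicate 2 or 3 of the knockout. There were 19 without both libraries that stood apart.

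Summed over the list, replication and mitosis genes held 124965, 105183 and 125667 normalized counts in the wild type and 60909.5, 80268 and 79576 in the knockout. The lowest sum and the lowest EZH2 count fell in the same library in each genotype, wild-type replicate 2 and knockout replicate 1. The part of a lower share of dividing cells in the EZH2 value was not tested.

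Among the E2F and RB families, which set the timing of those genes, 13 were tested, 1 rose and 1 fell with limma (15.4%, beside 12.8% of all genes tested). TFDP1, the partner that E2F proteins need to bind DNA, fell from 4747, 3134 and 5254 normalized counts to 962, 1884 and 1702 (-1.55, SE 0.32, limma adjusted p = 0.0183). Its relative TFDP2 rose from 1732, 1928 and 1532 to 4206, 2766 and 3516 (1.00, SE 0.22, limma adjusted p = 0.0227). Each call was lost when wild-type replicate 1 or 3 or knockout replicate 3 was left out, with limma adjusted p-values up to 0.0855 and 0.113 over the alternatives. E2F1, an activator, had a log2 fold change of -0.74 (SE 0.22, limma adjusted p = 0.0719). The other activators E2F2 and E2F3 were at -0.51 and 0.13, the other E2F genes E2F4, E2F5, E2F6, E2F7 and E2F8 at 0.05, -0.53, -0.11, -0.77 and 0.33, and RB1, RBL1 and RBL2 at -0.23, -1.02 and -0.43, none past the limma threshold. E2F3 and E2F4 turned negative with equal totals, at -0.15 and -0.23.

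Genes that PRC2 is known to silence in stem cells and the embryo were listed to describe the other end of the pathway. Of 55 developmental regulators, 17 had no read in any library and 14 were tested. A mean of at least 10 normalized counts was reached by 10 in the wild type and 13 in the knockout, 7 of them in both. Over the whole list the summed level was 329 to 407 normalized counts in the wild type and 2548 to 3457 in the knockout. Most of this came from LHX8, POU4F1 and EN1, without which the sums were 317 to 386 and 479 to 769. Genes that were tested only because the knockout raised their mean had to differ. For this reason nothing is read from the count of calls, 6 higher and 0 lower, and genes with a wild-type mean under 10 are given below by their values alone.

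LHX8, a forebrain LIM homeobox factor, had 12.1, 3.81 and 0 normalized counts in the wild type and 794, 1142 and 1451 in the knockout. POU4F1, a sensory neuron factor, had 0, 16.8 and 13.4 against 1589, 698 and 557 (limma log2 fold change 7.07, SE 1.07, adjusted p = 0.00558). EN1, a midbrain and limb homeobox factor, had no read in the wild type and 305, 209.5 and 179 normalized counts in the knockout, at least 79.4-fold higher when the floor is 3 reads in each wild-type library. GBX2, a patterning factor of the hindbrain, rose from a mean of 14.3 to 101 (2.91, SE 0.59, limma adjusted p = 0.0178), a call that was lost without wild-type or knockout replicate 3. EVX2, a spinal cord factor, had 4.53, 7.62 and 7.02 against 31.8, 55.7 and 76.4, and PAX6, an eye and forebrain factor, had 6.04, 5.33 and 1.276 against 47.0, 93.6 and 19.6. In EVX2 and PAX6, as in LHX8 and EN1, every knockout value was above every wild-type value, which held for 16.2% of all genes tested. All of them were tested only because of their knockout level, so nothing is read from this separation. These 6 genes were spread over 4 chromosomes, and LHX8 and EN1 were known from earlier results when the list was made.

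Most of the list, 39 of 55 genes, stayed low in both genotypes. SIX3, NKX6-2, NEUROD2 and 36 other listed genes had means under 10 in both, and PAX2, PAX7, NKX2-1, NKX2-2, WNT1 and NEUROG1 had no read at all. Genes that went the other way included LHX1, a kidney and head organizer factor that was not tested because of its low mean, with 18.9 ± 10.8 normalized counts in the wild type and at most 1 read in any knockout library, at least 5.78-fold lower. OLIG2 (28.5 against 14.8, limma log2 fold change -0.88, SE 0.52, adjusted p = 0.327) and OTX2 (117 against 75.5, -0.71, SE 0.43, limma adjusted p = 0.337) did not pass.

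Loss of EZH2 in the mouse heart is known to raise a small group of genes, of which 4 are given here. ISL1, a factor of second heart field progenitors, had 480.3, 781 and 440.1 normalized counts in the wild type and 6696, 8622 and 8133 in the knockout (limma log2 fold change 3.82, SE 0.26). PAX6, also on this list, is given above. CDKN2B, a cell cycle inhibitor, had 16.6, 26.7 and 5.74 against 47.0, 181 and 86.2 (2.62, SE 0.71, limma adjusted p = 0.0519). CDKN2A, its neighbour, had 0, 3.05 and 0 normalized counts against 6.36, 4.46 and 9.78 and was too low to test. Each of these 4 was higher in every knockout library than in any wild-type library, as were 16.2% of all genes tested. PAX6 was tested only because of its knockout level and CDKN2A was not tested, so nothing is read from this count. ISL1 was known from earlier results when the list was made, so its values are a description. Whether the lower EZH2 RNA took part in the values of these genes or of the developmental list was not tested. Protein levels and lysine 27 methylation were not measured in these libraries.

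**Figure D5:**
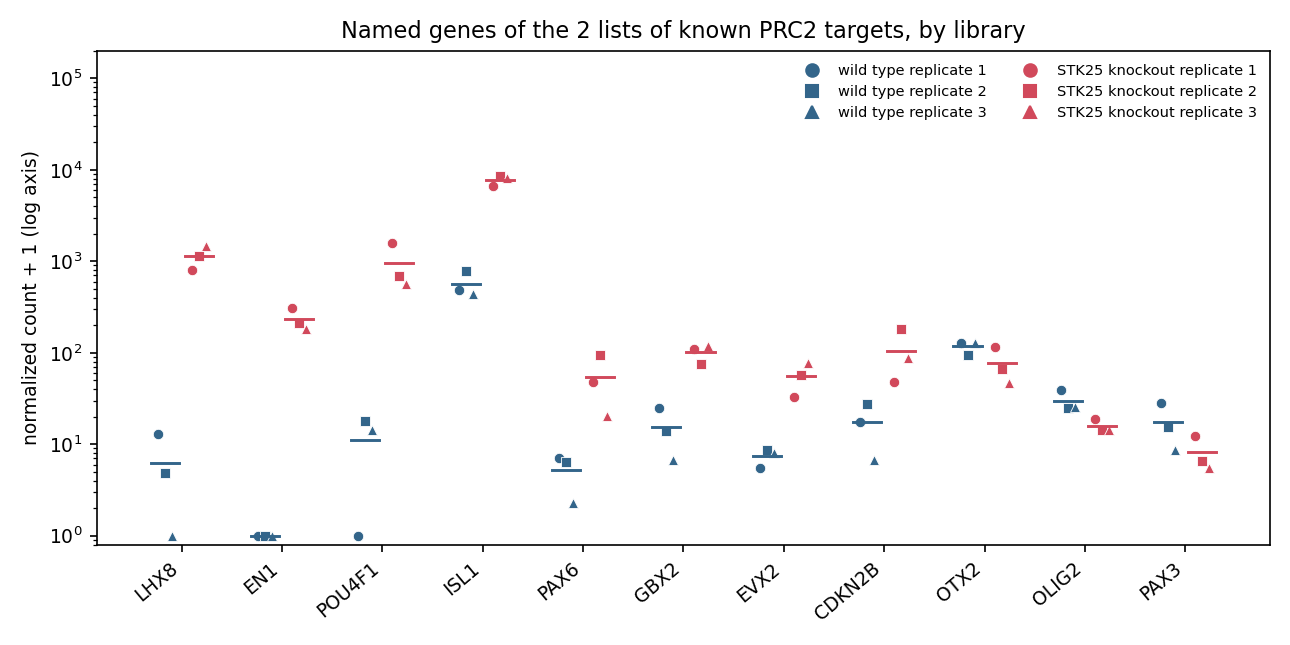
Normalized counts plus 1 (log axis) of 11 tested genes named here from both lists of known PRC2 targets in each library, ordered by fold change, with blue for wild type, red for STK25 knockout and a line at the mean of 3 libraries. LHX8, EN1 and POU4F1 are near 0 in the wild type and at 179 to 1589 in the knockout, ISL1 is high in both and higher in the knockout, and OTX2, OLIG2 and PAX3 have lower means in the knockout.

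Markers of other cell types moved between the same libraries. The limma counts below stand beside 5.97% of all genes tested called higher and 6.79% called lower. Smooth muscle genes (5 of 5 rose with limma) summed to 79383 to 89832 normalized counts in the wild type and 491950.0 to 539638 in the knockout, and 2 of 6 epicardial genes rose, with sums of 181 to 276 and 921 to 1129. Neural genes had 3 of 6 tested risen, while SOX1 was at or under 3 reads in every library. Their sums were 5356, 7874 and 4559.7 in the wild type and 16929, 7310 and 7088 in the knockout. Only knockout replicate 1 lay above every wild-type library. A mean of 10 was reached only in the knockout by 3 of the neural genes, among them PAX6, and by 1 epicardial and 1 pluripotency gene. APOB, the endoderm and liver gene that rose, had at most 3 reads in any wild-type library. Such genes were tested because of their knockout level, so nothing is read from their calls. Fibroblast and stromal genes had 2 risen and 1 fallen of 8, pluripotency genes 1 risen of 5 tested, endoderm and liver genes 1 risen and 1 fallen of 4 tested, and endothelial genes 0 of 3 tested with limma, edgeR or DESeq2 (0 at an unadjusted limma p under 0.05), with CDH5, TIE1 and FOXA2 at or under 3 reads throughout. The part of these cell types in the PRC2 and target values was not tested.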

How the data were processed

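The deposited table gives 1 signal value per gene symbol and library, which the authors call normalized counts. The submitters' processing notes name bcl2fastq 2.19, kallisto 0.44.0, DESeq2 1.28.1 and GRCh38 without giving their roles. The annotation and use of strand are not given in the sources used here, so reads of overlapping antisense genes cannot be told apart. Per the labels' protocols, a Clontech Ultra Low kit made the cDNA and NexteraXT the libraries. Of the deposited values 100% were whole multiples of 1 step per library (tolerance 0.001), and division by it recovered whole reads, which may be rounded estimates. Floors of 3 reads reflect counting error alone.

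Columns were matched to samples through the labels. Tests used limma 3.58.1 in R 4.3.3 (lmFit, eBayes with a trend, all 6 libraries, no covariate) on log2(value + 1), for genes whose mean was 10 or more. Benjamini-Hochberg adjustment ran over the 15536 genes tested, with calls at an adjusted p under 0.05. Fold changes on this scale understate the change of low genes. edgeR 4.0.16 and DESeq2 1.42.0 on the recovered reads, other pseudocounts, filters and scalings, the replicate number as a block and leaving out libraries were alternatives. The fits were tested on simulated data. The labels call the libraries of a genotype biological replicates. No 2 libraries of a genotype were alike within sampling noise.

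The members, lists and naming rule were chosen with earlier results of these data known. Named are the members, STK25, the short lists in full, KDM6A and KDM6B, up to 8 called genes of each longer list, the 5 nearest tested genes on either side of EZH2 and the 3 most like it; some of these are not reported here. CHAF1B, LHX1, OLIG2, OTX2, PAX3 and genes named only as silent or as markers were named after their values were seen. Positions and transcript lengths are those of GENCODE 29 on GRCh38, joined by symbol, and promoter windows those of RefSeq on GRCh38.p14.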

Additional observations from a re-analysis of the deposited data

How the results depend on the processing

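Each gene named by the stated rule and tested kept its direction under all alternatives run, except those listed here and EZH1, EED, RBBP7 and MTF2, whose small differences changed sign in some. The 1982 calls over all genes became 3210 with DESeq2, 4483 without both libraries that stood apart (an alternative chosen after seeing the data) and 796 to 2181 without 1 library. PRC2 calls (1) were 0 with a pseudocount of 0.1, no filter, no trend or edgeR, 2 with equal totals, 3 with DESeq2 or without both libraries, and 0 to 2 without 1 library. PRC1 calls (3) were 6 with DESeq2, 9 without both libraries and 1 to 4 without 1. The opposing modifier call (1) was 0 with a pseudocount of 0.1, no filter, equal upper quartiles, quantile normalization, no trend, robust eBayes or edgeR, and 0 to 1 without 1 library. Partner calls (0) were 3 without both libraries and 0 without any 1. Replication calls (8) were 3 with no trend, 13 with DESeq2, 19 without both libraries and 1 to 9 without 1. Developmental target calls (6) were 4 with a mean of at least 50 and 3 to 6 without 1 library. The cause was not tested.

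The replicate numbers did not pair the samples: deviations from the group means correlated at -0.235, -0.400 and 0.169 for replicates 1, 2 and 3, and not every sample correlated best with its own number. With the replicate number as a block there were 798 calls over all genes, 0 for PRC2, 1 for PRC1, 0 for opposing modifiers, 0 for partners, 1 for replication and 3 for developmental targets.

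Directions that turned, as log2 fold changes, were LCORL at 0.032 with quantile normalization, E2F3 at -0.15 with equal totals, E2F4 at -0.23 with equal totals, -0.017 with quantile normalization and -0.085 without both libraries, E2F6 at 0.027 without both, and KDM6B at -0.17 with equal totals and -0.30 without both. Without 1 library the ranges crossed 0 for LCORL (-0.11 to 0.034), E2F2 (-1.26 to 0.063), E2F4 (-0.16 to 0.17), E2F6 (-0.28 to 0.10), RBL2 (-0.97 to 0.18), KDM6A (-0.34 to 1.03) and KDM6B (-0.58 to 0.63). Depth limits the low genes most, since 1 read was worth 0.638 to 1.51 normalized counts.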
